A study of Mus musculus with 6 samples.

Results

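The transcripts described here encode the machinery of RNA polymerase I (Pol I) and RNA polymerase III (Pol III) in mouse oocytes with and without Rtcb, which encodes the ligase of tRNA exons. Members were the rows of the expression table whose symbols name the Pol I-type subunits Polr1a to Polr1e, the Pol III subunits Polr3a to Polr3k, TFIIIA and TFIIIC (Gtf3a and Gtf3c genes), the SNAPc subunits Snapc1 to Snapc5 and the selectivity factor subunits Taf1a to Taf1d, together with Brf1, Brf2, Bdp1, Maf1, Rrn3, Ubtf and Ttf1. This gave 38 genes of 23235 rows, 10 on the Pol I side, 21 on the Pol III side and 7 that belong to neither side alone, namely Polr1c and Polr1d, which are subunits of both enzymes, and SNAPc, which also serves Pol II.

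Pol I transcribes the ribosomal DNA repeats into the precursor of the large ribosomal RNAs. It is brought to the promoter by UBF (Ubtf), by the selectivity factor built of TBP and the Taf1 proteins, and by Rrn3, which links the enzyme to that factor. Pol III transcribes tRNAs, 5S rRNA and other short RNAs: TFIIIC binds the promoter inside a tRNA gene and places TFIIIB (TBP, Bdp1 and Brf1) upstream. At promoters of the U6 snRNA type SNAPc takes the place of TFIIIC, and Brf2 that of Brf1. Maf1 represses the enzyme. A growing oocyte accumulates ribosomes for the embryo, and transcription has largely stopped once it is fully grown. The RNAs made by both enzymes mostly lack poly(A) tails, so these libraries measure the mRNAs of the machinery and not its output.

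Fully-grown germinal vesicle (GV) oocytes, arrested before the first meiotic division, came from C57BL/6 mice after hormone priming with PMSG for 44 to 48 h, in 3 wild-type (WT) and 3 Rtcb knock-out (KO) libraries of 10 oocytes each. The sample titles carry the tag 6W, whose meaning is not spelled out. The sources used here give neither the deletion strategy nor a Cre driver nor the number of animals. No label states that each library came from its own animal, and the p-values therefore cover only library-to-library spread, possibly technical. Values are FPKM (fragments per kilobase of transcript and sequencing depth), scaled to spike-in RNA by the authors. The reads behind each value are unknown. In such bulk libraries, fewer oocytes and less RNA per oocyte cannot be told apart.

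Rtcb (row D10Wsu52e, an earlier symbol) stood at 113 to 136 FPKM in WT and 2.49 to 3.82 FPKM in KO. The deposited values hold 1 multiplier per genotype, the KO multiplier being 0.667 of the WT one, so genes are also given with these genotype factors removed and with equal library totals. Among 12029 genes tested with limma, 63.3% were called as deposited at a Benjamini-Hochberg adjusted p under 0.05, 9.29% higher and 54.0% lower in KO. Removal of the factors left 25.7% higher and 18.0% lower. The median log2 fold change of all tested genes was −0.47 as deposited and 0.043 with the factors removed. The summed level of the 10 oocyte markers was 27856 to 31848 FPKM in WT and 18617 to 19772 FPKM in KO, that of the 12 granulosa and cumulus markers 58.5 to 65.5 and 46.2 to 60.0 FPKM. Of the latter, 6 had a mean under 1 FPKM, Fshr, Amh and Foxl2 among them. Others were present: Cyp19a1 was at 35.6 to 39.8 FPKM in WT and 17.5 to 22.2 in KO, Nr5a2 at 7.57 to 11.3 FPKM in WT and 12.3 to 14.5 in KO and Inha at 3.50 to 8.36 FPKM in WT and 6.08 to 17.8 in KO. The 5 leukocyte markers summed to 5.0 to 6.77 FPKM in WT and 2.46 to 5.97 FPKM in KO, and of 3 erythroid markers Hbb-b1 and Hba-a1 were listed at 0 in all libraries. Their part in the results was not tested.

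Most of the machinery was detected in WT oocytes, over a wide range of levels. Polr1d, a small subunit of both enzymes, was by far the highest member at 1236 ± 136 FPKM (SD, n = 3), followed by Brf2 at 404 ± 66.1 FPKM and Snapc5 at 131 ± 19.9 FPKM. Polr3k (102 FPKM), Taf1b (98.5 FPKM) and Rrn3 (97.7 FPKM) came next, and these 3 did not differ in order beyond the spread of Rrn3 (16.9 FPKM, SD). At the low end were Ttf1 (1.48 FPKM), Gtf3c5 (0.809 FPKM) and Gtf3c4 (0.489 FPKM), and Taf1a was listed at 0 in all 6 libraries. The catalytic subunit of Pol III, Polr3a (81.1 FPKM), was well above that of Pol I, Polr1a (11.7 FPKM). In all, 37 members reached a mean of 1 FPKM over the 6 libraries and were tested. Gtf3c4 and Gtf3c5, below 1 FPKM in WT, passed only through their KO values.

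Rtcb loss went with changes in both directions within each polymerase system. As deposited, limma called 8 of the 37 tested members higher in KO (21.6%, against 9.29% of all tested genes) and 15 lower (40.5%, against 54.0%). The share called in either direction, 62.2%, was close to the 63.3% of all tested genes. On the Pol I side 2 of 9 tested members were higher and 4 lower, with a median log2 fold change of −0.56. On the Pol III side 4 of 21 were higher and 8 lower, with a median of −0.35, beside −0.47 for all tested genes. These medians lay −0.092 and 0.12 from that of all genes, and the difference between both sides was not tested. The Pol I median rests on 9 genes and ran from −0.72 (without WT 3) to −0.39 (without WT 1). The count of higher Pol I genes was 1 without KO 1 or KO 3, and that of lower Pol III genes 5 without KO 2. Shares of all tested genes in these fits are not given, so these counts show only how the members' calls varied. With the factors removed, 4 Pol I genes were higher and 3 lower, and 9 Pol III genes were higher and 4 lower. In that scaling 17 members were higher (45.9%) and 8 lower (21.6%), against 25.7% and 18.0% of all tested genes. With equal totals 15 members were higher and 9 lower, where 19.0% and 25.8% of all tested genes were (44.8% in either direction), and by median ratios 16 were higher and 9 lower, where 22.8% and 21.7% were. The groups did not overlap for 9 members higher and 19 lower as deposited, beside 10.2% and 57.5% of all tested genes (67.8% in either direction). With the factors removed this held for 19 higher and 9 lower members, beside 31.7% and 24.7% (56.4% in either direction).

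**Figure D1:**
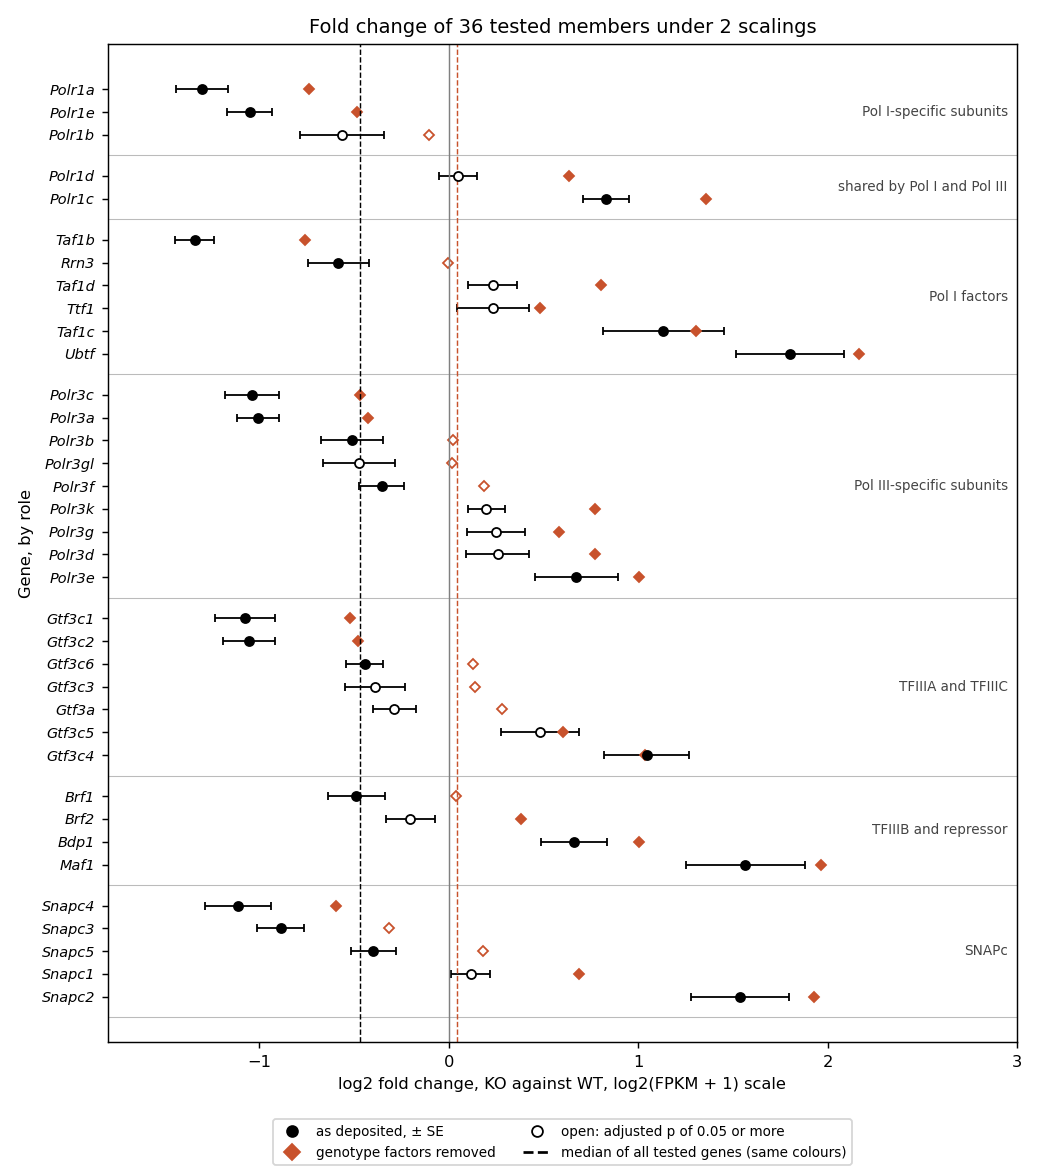
Log2 fold change (KO against WT, horizontal axis) of 36 of the 37 tested members, listed by role, as deposited (black circles, bars are ± SE) and with the genotype factors removed (orange diamonds); filled symbols passed an adjusted p under 0.05 and dashed lines mark the medians of all tested genes, −0.47 and 0.043. Each role with 4 or more tested members has genes on both sides of the median of all genes. For TFIIIB with Maf1, only Brf1 is below it, and by less than its SE (−0.49, SE 0.15, as deposited). With the factors removed Brf1 is at 0.039.

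Because a scaling multiplies all genes of a library alike, the members called in the same direction under 3 scalings are described first. On the log2(FPKM + 1) scale, low genes do not shift as far as high ones. A call that a low gene keeps therefore does not show independence of the scaling. With the factors removed, the log2 fold change of Gtf3c4 went from 1.04 to 1.03 and that of Taf1b from −1.34 to −0.76. In all, 16 members were called in the same direction as deposited, with equal totals and with the factors removed. These were 8 of 37 higher (9.23% of all tested genes were) and 8 of 37 lower (18.0% of all tested genes; 27.2% in either direction). Higher in KO were Ubtf and Taf1c on the Pol I side, Polr3e, Gtf3c4, Bdp1 and Maf1 on the Pol III side, the shared subunit gene Polr1c, and Snapc2. Lower were Polr1a, Polr1e and Taf1b on the Pol I side, Polr3a, Polr3c, Gtf3c1 and Gtf3c2 on the Pol III side, and Snapc4. Median-ratio rescaling called all 16 in the same direction. Its median log2 fold change of all tested genes (−0.020) lies between those with equal totals (−0.094) and with the factors removed (0.043). It is therefore no separate check on the 16. Nor are equal totals, whose median lies between that as deposited (−0.47) and that with the factors removed. The 8 higher members are those called higher as deposited. The 8 lower are those called lower with the factors removed. Each direction thus rests on 1 of the scalings. Leaving out 1 library as deposited ended the calls of Taf1c (adjusted p = 0.0524 without KO 1 and 0.0553 without KO 3) and Polr3e (0.0922 without WT 2, 0.0706 without WT 3, 0.0926 without KO 1 and 0.0882 without KO 3), and of none of the other 14. With the factors removed, it ended those of Polr3a without KO 3 (0.057), of Polr3c without any library but KO 1 (up to 0.0866, without KO 3), of Gtf3c1 without WT 1, WT 2, KO 2 or KO 3 (up to 0.0794, without WT 1) and of Gtf3c2 without WT 1, WT 2, KO 1 or KO 2 (up to 0.0642, without WT 1).

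**Figure D2:**
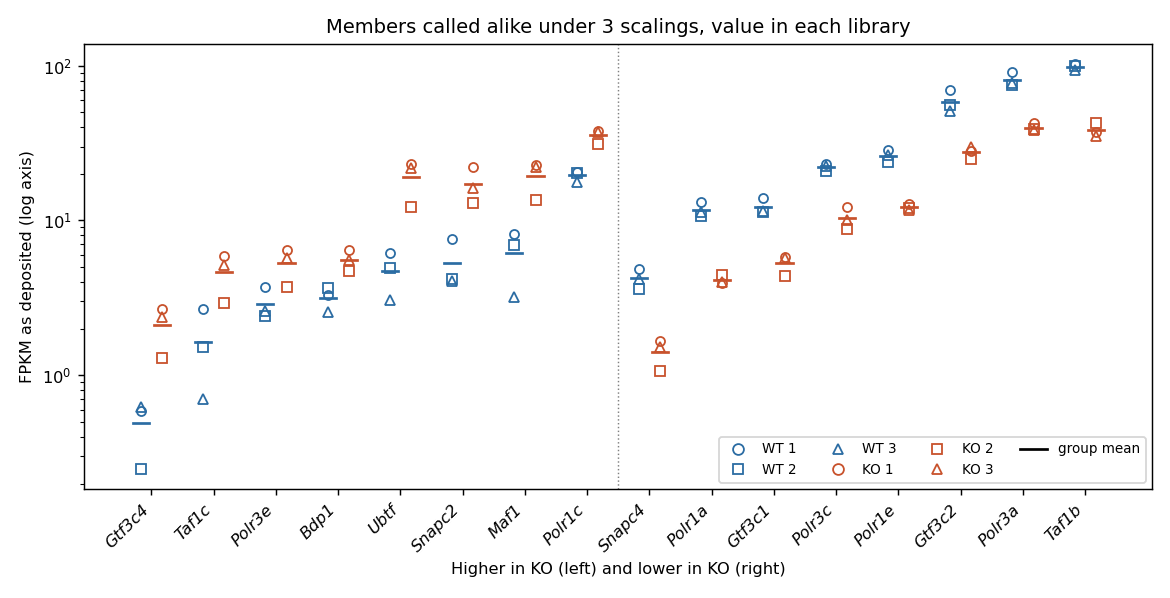
FPKM as deposited (log axis) in each library for the 16 members called in the same direction under the 3 scalings, with WT in blue, KO in orange, symbols for library number and lines for group means. The 8 genes on the right have all KO values below all WT values, and in each of the 8 genes on the left KO 2 is the lowest of the KO libraries.

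The 8 higher genes started from lower WT levels (0.489 to 19.5 FPKM, median 3.94) than the 8 lower genes (4.22 to 98.5 FPKM, median 24.2). Among all genes called alike, the median WT level was 4.75 FPKM for 1110 higher and 31.3 FPKM for 2161 lower genes. A gene under 1 FPKM in WT, such as Gtf3c4 here, could be tested only if it was higher in KO. The other 7 higher members started from 1.64 to 19.5 FPKM (median 4.71), and the 956 higher genes with at least 1 FPKM in WT had a median of 6.44 FPKM. KO 2 was the KO library nearest to WT for 8 of the 8 higher members and for 2 of the 8 lower ones. Over all tested genes called alike this held for 85.6% of higher and 50.5% of lower genes.

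The promoters of 3 of these members are printed because they hold the same short element while their transcripts moved in opposite directions. The 250 bases before the transcription start are given 5′ to 3′ on the gene's strand, from RefSeq on build GRCm38.p6, for Polr1c (chr17:46248046-46248295, minus strand) and Bdp1 (chr13:100104071-100104320, minus strand), both higher in KO, and for Gtf3c2 (chr5:31180145-31180394, minus strand), lower in KO. Capitals mark CCGGAAG, the core letters of an ETS factor element, or its reverse complement CTTCCGG.
Polr1c: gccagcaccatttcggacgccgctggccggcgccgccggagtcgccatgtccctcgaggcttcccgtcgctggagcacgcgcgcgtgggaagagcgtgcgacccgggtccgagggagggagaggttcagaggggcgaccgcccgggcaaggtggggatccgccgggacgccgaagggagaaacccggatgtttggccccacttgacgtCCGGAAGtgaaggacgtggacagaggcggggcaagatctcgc
Bdp1: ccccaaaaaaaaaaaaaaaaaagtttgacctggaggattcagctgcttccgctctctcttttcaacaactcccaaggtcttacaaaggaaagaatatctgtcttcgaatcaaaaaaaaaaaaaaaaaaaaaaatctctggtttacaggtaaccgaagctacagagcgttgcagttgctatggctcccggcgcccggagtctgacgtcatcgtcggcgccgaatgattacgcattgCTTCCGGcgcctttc
Gtf3c2: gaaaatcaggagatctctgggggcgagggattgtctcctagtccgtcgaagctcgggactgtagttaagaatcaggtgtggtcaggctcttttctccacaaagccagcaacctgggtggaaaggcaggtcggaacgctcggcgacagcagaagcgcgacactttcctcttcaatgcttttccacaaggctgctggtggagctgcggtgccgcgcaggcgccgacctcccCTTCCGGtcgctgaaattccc
CCGGAAG begins 42 bases before the start of Polr1c, and CTTCCGG begins 15 bases before that of Bdp1 and 21 before that of Gtf3c2. On either strand of the window of 300 bases, which adds 50 bases after the start, these letters occurred in 16 of the 32 members with an entry, in 20.0% of the 8495 tested genes with an entry and in 8.86% of all 32851 promoters. They were present in 3 of 7 higher and 5 of 7 lower members of the 16. Of the other elements searched, with overlapping matches counted for each, the E-box CACGTG occurred in 5 members (11.6% of tested genes), the CCAAT box CCAAT in 12 (44.0%), the GC box GGGCGG in 20 (66.0%) and the CRE TGACGTCA in 3 (3.65%). The elements were chosen after the fold changes were known, and a match describes letters, not a bound site.

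Of the 3 members that are Pol I subunits not shared with Pol III, 2 were lower; other such subunits, outside the symbols chosen, are given further on. Polr1a, which encodes the largest, catalytic subunit, was at 13.1, 10.7 and 11.3 FPKM in WT and at 3.97, 4.42 and 4.02 FPKM in KO. Its KO values all lay below its WT values, a 2.83-fold fall of the mean (limma log2 fold change −1.30, SE 0.14, adjusted p = 0.000219; −0.74, adjusted p = 0.00363 with the factors removed). Polr1e, the subunit that forms a dimer with Cd3eap on the enzyme's surface, was at 28.3, 23.9 and 26.5 FPKM in WT and at 12.8, 11.9 and 11.6 FPKM in KO. The groups did not overlap here either, and the mean fell 2.16-fold (limma log2 fold change −1.05, SE 0.12, adjusted p = 0.000248; −0.48, adjusted p = 0.0120 with the factors removed). Polr1b, the second-largest subunit, was at 5.68, 4.25 and 3.07 FPKM in WT and at 2.77, 1.95 and 2.98 FPKM in KO. WT 3 stood just above KO 3 in this gene, and it was not called (log2 fold change −0.56, adjusted p = 0.0533).

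Both subunits that Pol I and Pol III share stood above the median of all genes. Polr1c, which forms the assembly platform of the enzyme with Polr1d, was at 20.6, 20.3 and 17.7 FPKM in WT and at 38.0, 31.4 and 37.2 FPKM in KO. Every KO library exceeded every WT library, and the mean rose 1.82-fold (limma log2 fold change 0.83, SE 0.12, adjusted p = 0.000707; 1.36, adjusted p = 0.000802 with the factors removed). Polr1d, its partner, was at 1236 ± 136 to 1275 ± 49.3 FPKM and was not called as deposited (log2 fold change 0.05, adjusted p = 0.680). It was called higher after removal of the factors (0.63, adjusted p = 0.00261).

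Among the Pol I factors, Ubtf and Taf1c rose and Taf1b fell in all 3 scalings. Ubtf, the architectural factor that covers active ribosomal DNA, was at 6.15, 4.92 and 3.07 FPKM in WT and at 23.2, 12.2 and 21.8 FPKM in KO. Its groups did not overlap, although KO 2 reached a lower level than the other KO libraries. The mean rose 4.04-fold (limma log2 fold change 1.80, SE 0.29, adjusted p = 0.00100, and 2.17, adjusted p = 0.00126 with the factors removed). As deposited, this was the highest change of the 37 tested members on the log2(FPKM + 1) scale. By the ratio of means, Gtf3c4 rose more, 4.32-fold, but from only 0.489 FPKM in WT. Gtf3c4 also passed the filter only through its KO values. Taf1c, a subunit of the selectivity factor, was at 2.67, 1.53 and 0.701 FPKM in WT and at 5.89, 2.92 and 5.16 FPKM in KO. KO 2 stood just above WT 1, and the 2.85-fold rise of the mean (log2 fold change 1.13, adjusted p = 0.0150) ranged from 2.21-fold to 4.17-fold when single libraries were left out. Its exons overlap those of Dnaaf1 on the opposite strand in the annotation of a later build, and reads from an overlap cannot be told apart without strand.

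Taf1b, the selectivity factor subunit related to TFIIB, was at 102, 99.99 and 93.5 FPKM in WT and at 37.3, 42.6 and 35.2 FPKM in KO. It was the lowest of the 37 changes on the log2(FPKM + 1) scale, with a 2.57-fold fall of the mean (limma log2 fold change −1.34, SE 0.10, adjusted p = 0.000162, and −0.76, adjusted p = 0.00162 with the factors removed). By the ratio of means, Snapc4 (2.97-fold) and Polr1a (2.83-fold) fell more. Taf1d was at 64.2 ± 1.40 to 76.3 ± 12.5 FPKM and was not called as deposited (log2 fold change 0.23, adjusted p = 0.146), but was higher with the factors removed (0.80, adjusted p = 0.00266). Thus of the 3 selectivity factor subunits with values, 1 rose, 1 fell and 1 was not called as deposited. Rrn3 was at 97.7 ± 16.9 to 64.8 ± 10.0 FPKM, a call as deposited (log2 fold change −0.58, adjusted p = 0.0131) that was lost without KO 3 (adjusted p = 0.0523). Its log2 fold change was −0.0046 with the factors removed. Ttf1, the factor that ends Pol I transcription, was at 1.48 to 1.91 FPKM (log2 fold change 0.23, adjusted p = 0.310). It was called higher with the factors removed (0.48, adjusted p = 0.0353), a call lost without WT 1 (0.0863), WT 3 (0.0890), KO 1 (0.107) or KO 3 (0.0519), and by median ratios (0.55, adjusted p = 0.0438).

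The Pol III subunits ranged from falls of Polr3a and Polr3c to a rise of Polr3e. Polr3a, the largest subunit, was at 91.2, 74.9 and 77.3 FPKM in WT and at 42.3, 38.9 and 38.1 FPKM in KO. The groups lay well apart, with a 2.04-fold fall of the mean (limma log2 fold change −1.01, SE 0.11, adjusted p = 0.000234; −0.43, adjusted p = 0.0148 with the factors removed). Polr3b, the second-largest subunit, was at 14.1, 12.6 and 12.6 FPKM in WT and at 11.2, 7.55 and 8.23 FPKM in KO. It was called lower as deposited (log2 fold change −0.51, adjusted p = 0.0250), a call lost without WT 1, WT 2, KO 2 or KO 3 (0.0616 to 0.0849) and without the factors (log2 fold change 0.024).

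Polr3c, Polr3f and Polr3g or Polr3gl form the trimer that opens the promoter during initiation, and they did not move alike. Polr3c was at 23.3, 20.8 and 22.4 FPKM in WT and at 12.3, 8.84 and 9.99 FPKM in KO. All KO values were below all WT values, and the mean fell 2.14-fold (limma log2 fold change −1.04, SE 0.14, adjusted p = 0.000534; −0.47, adjusted p = 0.0276 with the factors removed). Polr3f was at 16.9 ± 0.227 to 13.0 ± 1.12 FPKM, lower as deposited (log2 fold change −0.35, adjusted p = 0.0287; 0.0503 with the replicate block) and not called in the other scalings (log2 fold change 0.19 with the factors removed). Its call was lost without any single library but KO 1 (adjusted p from 0.0549 without WT 3 to 0.0773 without WT 2).

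Polr3g and Polr3gl encode alternative forms of the third trimer subunit, the former known from stem cells and cancer cells and the latter from most tissues. Polr3g was at 2.22, 2.68 and 2.48 FPKM in WT and at 2.84, 2.94 and 3.59 FPKM in KO. Polr3gl was at 6.30, 8.46 and 5.13 FPKM in WT and at 4.15, 4.06 and 5.09 FPKM in KO. For both genes the groups did not overlap, Polr3g being higher and Polr3gl lower in KO, yet neither was called as deposited (limma adjusted p = 0.182 and 0.0594). Polr3g was called higher after removal of the factors (0.58, adjusted p = 0.00940), and Polr3gl was at a log2 fold change of 0.016. The ratio of Polr3g to Polr3gl within a library, which does not depend on the scaling, was 0.352, 0.317 and 0.483 in WT and 0.686, 0.725 and 0.705 in KO. It was 1.87-fold higher in KO, with all KO above all WT libraries (exact permutation test, two-sided, p = 0.1, the smallest that 3 against 3 allows; 0.2 adjusted over 4 ratios).

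Among the remaining Pol III subunits, 1 was called as deposited. Polr3e, which forms a dimer with Polr3d on the enzyme, was at 3.70, 2.42 and 2.59 FPKM in WT and at 6.41, 3.69 and 5.72 FPKM in KO. KO 2 and WT 1 were at nearly the same level, so the groups overlapped slightly, and the mean was 1.82-fold higher (limma log2 fold change 0.67, SE 0.22, adjusted p = 0.0268; 1.00, adjusted p = 0.00559 with the factors removed). Without WT 2, WT 3, KO 1 or KO 3 it was not called (0.0706 to 0.0926 as deposited). Polr3d itself was at 13.1 to 15.9 FPKM (log2 fold change 0.26, adjusted p = 0.210; 0.77, adjusted p = 0.00738 with the factors removed). Polr3k, the subunit for RNA cleavage and termination, was at 102 to 118 FPKM (log2 fold change 0.20, adjusted p = 0.110; 0.77, adjusted p = 0.00133 with the factors removed). Over the 10 Pol III subunits, 1 rose and 4 fell as deposited (10% and 40%, beside 9.29% and 54.0% of all tested genes), and 4 rose and 2 fell with the factors removed (40% and 20%, beside 25.7% and 18.0%).

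In TFIIIC, the factor that reads the internal promoters of tRNA genes, Gtf3c1 and Gtf3c2 fell in all scalings. The only TFIIIC subunits called higher in any scaling, Gtf3c4 and Gtf3c5, passed the filter only through their KO values. Gtf3c1, the largest TFIIIC subunit, was at 14.0, 11.3 and 11.5 FPKM in WT and at 5.78, 4.36 and 5.75 FPKM in KO. Gtf3c2 was at 69.6, 55.3 and 50.8 FPKM in WT and at 28.0, 24.9 and 29.7 FPKM in KO. In both genes every KO value was below every WT value, with falls of 2.31-fold and 2.13-fold (limma adjusted p = 0.000692 and 0.000451; −0.52 and −0.48 on the log2 scale with the factors removed).

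Gtf3c4 was at 0.591, 0.248 and 0.628 FPKM in WT and at 2.66, 1.29 and 2.38 FPKM in KO. It rose from the lowest WT level of any tested member, with KO above WT in all libraries (limma log2 fold change 1.04, SE 0.22, adjusted p = 0.00431; 1.03, adjusted p = 0.00363 with the factors removed). Since it passed the filter through its KO values alone, it could be tested only because it was higher there. At such levels the 1 added before the logarithm damps the shift with scaling. Its near-equal log2 fold changes therefore do not show independence of the scaling. Gtf3c5, at 0.809 to 1.51 FPKM, was not called as deposited (log2 fold change 0.48, adjusted p = 0.0709; 0.60, adjusted p = 0.0166 with the factors removed, lost without WT 1, KO 1 or KO 3, up to 0.0545). Gtf3c6 was at 57.4 ± 3.83 to 41.9 ± 1.57 FPKM, lower as deposited (log2 fold change −0.44, adjusted p = 0.00449) but not with the factors removed (log2 fold change 0.13). Gtf3c3 was at 12.8 to 9.39 FPKM (adjusted p = 0.0625). Gtf3a, which encodes TFIIIA, the factor specific to 5S rRNA genes, was at 46.0 to 37.6 FPKM (adjusted p = 0.0550). Neither of these last 2 was called in any of the scalings.

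In TFIIIB, Bdp1 and Brf1 went in opposite directions as deposited. Bdp1, the subunit used at every Pol III promoter, was at 3.28, 3.65 and 2.56 FPKM in WT and at 6.48, 4.69 and 5.57 FPKM in KO. KO lay above WT in all libraries, a 1.76-fold rise (limma log2 fold change 0.66, SE 0.17, adjusted p = 0.0112; 1.00, adjusted p = 0.00234 with the factors removed). Brf1, the TFIIB relative used at tRNA and 5S rRNA genes, was at 11.2, 10.8 and 12.5 FPKM in WT and at 7.67, 6.79 and 9.42 FPKM in KO. It was lower as deposited (log2 fold change −0.49, adjusted p = 0.0220), a call lost without WT 3 (0.0631), KO 1 (0.0652) or KO 2 (0.0612) and in the other scalings (log2 fold change 0.039 with the factors removed). Brf2, its counterpart at U6-type promoters, was at 345, 391 and 475 FPKM in WT and at 335, 383 and 328 FPKM in KO. Its groups overlapped, and it was not called as deposited (log2 fold change −0.20, adjusted p = 0.202). Removal of the factors gave a call (0.38, adjusted p = 0.0445), lost without any single library but WT 3 (0.081 without KO 3 to 0.123 without WT 2). Brf1 was at only 0.0288 ± 0.00328 of the level of Brf2 in WT and at 0.0231 ± 0.00550 in KO (SD, n = 3), a ratio whose groups overlapped (exact permutation test, two-sided, p = 0.3; 0.4 adjusted over 4 ratios).

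Maf1, the repressor that holds Pol III off its genes when nutrients are short, rose. It was at 8.18, 6.94 and 3.23 FPKM in WT and at 22.7, 13.5 and 22.2 FPKM in KO. The groups were apart, with KO 2 again the lowest KO library and WT 3 the lowest of WT. The mean was 3.18-fold higher (limma log2 fold change 1.57, SE 0.32, adjusted p = 0.00317; 1.97, adjusted p = 0.00199 with the factors removed), or 2.58-fold to 3.83-fold with single libraries left out. Maf1 is regulated by phosphorylation, which these values do not measure.

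SNAPc, the complex that starts snRNA transcription by Pol II and by Pol III, held members called in opposite directions. Snapc2 was at 7.61, 4.17 and 4.08 FPKM in WT and at 22.0, 13.0 and 16.2 FPKM in KO. It rose 3.23-fold without overlap between the groups (limma log2 fold change 1.54, SE 0.26, adjusted p = 0.00132; 1.93, adjusted p = 0.00132 with the factors removed). Snapc4, the largest subunit and the one with the Myb-type DNA-binding domain, was at 4.85, 3.62 and 4.20 FPKM in WT and at 1.67, 1.07 and 1.53 FPKM in KO. It fell 2.97-fold, also without overlap (limma log2 fold change −1.11, SE 0.17, adjusted p = 0.00092; −0.59, adjusted p = 0.0137 with the factors removed). Snapc3 was at 50.1 ± 3.0 to 26.8 ± 3.84 FPKM (log2 fold change −0.89, adjusted p = 0.000597), lower also with equal totals (−0.47, adjusted p = 0.0173) but missing the threshold without the factors (−0.31, adjusted p = 0.0726). Snapc5 was at 131 to 98.3 FPKM, a call as deposited (log2 fold change −0.40, adjusted p = 0.0189) that was lost without WT 2 (0.0564), KO 1 (0.0537) or KO 3 (0.0645). Snapc1 was at 69.4 to 75.4 FPKM (log2 fold change 0.12, adjusted p = 0.350; 0.69, adjusted p = 0.00211 with the factors removed).

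Pol I and Pol III were set against each other directly by ratios within libraries. Polr3a stood at 6.98, 7.0 and 6.82 times the level of Polr1a in WT and at 10.7, 8.80 and 9.46 times in KO. All KO ratios exceeded all WT ratios, by 1.39-fold on average (exact permutation test, two-sided, p = 0.1, the smallest possible; 0.2 adjusted over 4 ratios). The ratio of the second-largest subunits, Polr3b to Polr1b, was 3.19 ± 0.837 in WT and 3.57 ± 0.704 in KO (SD, n = 3), with overlapping groups (exact permutation p = 0.7, also after adjustment).

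**Figure D3:**
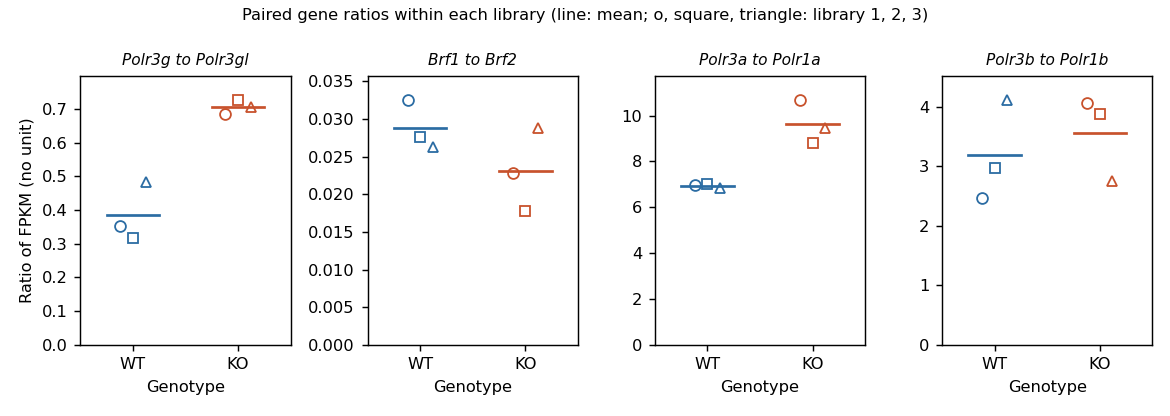
Ratio of the FPKM of paired genes (vertical axes from 0, no unit) in each WT and KO library, with lines for the group means. The Polr3g to Polr3gl and Polr3a to Polr1a ratios are higher in all KO than in all WT libraries, while the other 2 ratios overlap between the genotypes.

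Summed over the members, the 3 Pol I-specific subunits stood at 42.3 ± 4.26 FPKM in WT and 18.8 ± 0.636 FPKM in KO (SD, n = 3). The 10 Pol III-specific subunits summed to 296 ± 12.3 FPKM in WT and 245 ± 15.5 FPKM in KO. The Pol III to Pol I ratio of these sums was 6.57, 7.58 and 6.96 in WT and 12.8, 12.4 and 13.8 in KO. This is a description with no test, and it depends on which subunits enter. Without Polr3k, the highest member of the Pol III sum, the mean ratio was 4.59 in WT and 6.73 in KO. The symbols of the members leave out the Pol I subunits Twistnb, Znrd1 and Cd3eap and the Pol III subunit Crcp. With these added, the mean ratio was 1.01 ± 0.176 in WT and 0.852 ± 0.0614 in KO. The groups then overlapped, as WT 3 (0.811) lay below KO 1 (0.905) and KO 3 (0.867). Znrd1 (254 FPKM in WT) made up most of that Pol I sum (332 FPKM in WT).

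The added subunits held calls in both directions. Twistnb, of the Pol I stalk, was at 26.5 to 37.4 FPKM (log2 fold change 0.47, adjusted p = 0.0425; 1.01, adjusted p = 0.00308 with the factors removed), a call as deposited that was lost without any single library but KO 2 (up to 0.143, without WT 2). Znrd1, the Pol I subunit for RNA cleavage, was at 254 to 279 FPKM and was not called as deposited (adjusted p = 0.377; 0.73, adjusted p = 0.00548 with the factors removed). Cd3eap, the partner of Polr1e, was at 9.05 to 6.29 FPKM, a call (log2 fold change −0.47, adjusted p = 0.0297) lost without WT 1 (0.0808), WT 3 (0.0789), KO 1 (0.105) or KO 2 (0.0609) and in the other scalings. Crcp, of the Pol III stalk, was at 33.9 to 46.0 FPKM (log2 fold change 0.42, adjusted p = 0.0176; 0.98, adjusted p = 0.00133 with the factors removed), a call lost without WT 1 (0.0526) or KO 1 (0.0639). Tbp, the TATA-binding protein used by both systems, was at 151 ± 3.99 to 109 ± 4.56 FPKM (log2 fold change −0.46, adjusted p = 0.00170; log2 fold change 0.12 with the factors removed). Of these 5 genes, chosen for their roles, 2 were higher and 2 lower as deposited, beside 9.29% and 54.0% of all tested genes. With the factors removed 3 were higher and 0 lower, beside 25.7% and 18.0%. All 5 log2 fold changes were then above 0 (Cd3eap 0.046, Tbp 0.12), as was the median of all tested genes (0.043).

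The 5 subunits present in all 3 nuclear polymerases included 1 clear change, named after its value was seen. Polr2h was at 35.7, 33.0 and 47.5 FPKM in WT and at 106, 73.3 and 95.0 FPKM in KO. It rose 2.37-fold without overlap (limma log2 fold change 1.22, SE 0.18, adjusted p = 0.000676; 1.77, adjusted p = 0.000838 with the factors removed). Polr2e was lower as deposited (281 to 189 FPKM, log2 fold change −0.57, adjusted p = 0.000505), though not with the factors removed (log2 fold change 0.015), and Polr2f, Polr2k and Polr2l were not called as deposited but higher on removal of the factors (0.43, 0.43 and 0.48 on the log2 scale). Those calls were lost without KO 3 (0.0756, 0.0679 and 0.0771), and also without KO 1 or KO 2 for Polr2k and without WT 1, WT 2 or KO 2 for Polr2l. Of the 7 subunits specific to Pol II, 0 rose (0 also at an unadjusted limma p under 0.05) and 3 fell (42.9%) as deposited, beside 9.29% and 54.0% of all tested genes. With the factors removed, 2 rose (Polr2g and Polr2j, 28.6%) and 1 fell (14.3%), beside 25.7% and 18.0%. The one that fell was Polr2b, its second-largest subunit (−0.68, adjusted p = 0.00341 with the factors removed, against −1.26 with adjusted p = 0.000174 as deposited, where it was at 71.8 to 29.3 FPKM). Polr2c (log2 fold change −0.47, adjusted p = 0.00128) and Polr2d (log2 fold change −0.42, adjusted p = 0.00571) were the other two lower as deposited. The median log2 fold change of the 7 was −0.34, beside −0.47 for all tested genes.

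For regulators around ribosomal DNA and Pol III genes, counts are given beside those of all tested genes. Of 12 listed regulators of ribosomal DNA, 11 were tested, of which 0 rose (0 also at an unadjusted limma p under 0.05) and 7 fell (63.6%) as deposited, beside 9.29% and 54.0%. With the factors removed 2 rose (Sirt7 and Kdm2a) and 2 fell, 18.2% each, beside 25.7% and 18.0%. Both rises were lost without any single library but KO 2 (up to 0.129 for Sirt7, without KO 1, and 0.0944 for Kdm2a, without KO 3). The falls were Kdm2b, a histone demethylase (−0.80, adjusted p = 0.00422), and Tcof1, the treacle protein that binds UBF and Pol I (−0.75, adjusted p = 0.00645). As deposited, Kdm2b was at 145 to 54.5 FPKM (log2 fold change −1.38, adjusted p = 0.000219), while Tcof1 was at 24.8 to 9.40 FPKM (log2 fold change −1.33, adjusted p = 0.000302). Nolc1, a nucleolar partner of Tcof1, fell as deposited (81.8 to 47.3 FPKM, log2 fold change −0.77, adjusted p = 0.000285) but was not called once the factors were removed (−0.20, adjusted p = 0.105). Of 7 genes listed as factors of Pol III genes or as binding Pol III transcripts, 0 rose (0 also at an unadjusted limma p under 0.05) and 3 fell (42.9%, beside 54.0% of all tested genes) as deposited. With the factors removed 3 rose (Pou2f1, Zfp143 and Mepce, 42.9%) and 1 fell (14.3%), beside 25.7% and 18.0%. The calls of Pou2f1 (without WT 1, WT 2, KO 1 or KO 3, up to 0.0714 without KO 3) and Mepce (without any single library but WT 3, up to 0.137 without KO 3) were lost. Larp7, which binds the 7SK RNA, fell in all scalings (96.6 to 46.5 FPKM, log2 fold change −1.04, adjusted p = 0.00017). Ssb, the La protein that binds the ends of new Pol III transcripts, was at 1169.5 to 803 FPKM (log2 fold change −0.54, adjusted p = 0.00224), a call made only as deposited. Larp4, a La-related protein for which no Pol III role is shown here, was the other lower gene (44.1 to 32.3 FPKM, limma log2 fold change −0.44, adjusted p = 0.0130, and 0.056 without WT 2).

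Few products of Pol I or Pol III were measured in these oligo-dT primed libraries. Rn45s, the ribosomal RNA precursor, was listed at 1463, 1519.9 and 3058 FPKM in WT and at 2441, 3289 and 2884 FPKM in KO. WT 3 exceeded KO 1 and KO 3, and Rn45s was not called as deposited (log2 fold change 0.59, adjusted p = 0.0904; 1.17, adjusted p = 0.0110 with the factors removed). The Pol III transcripts Rmrp, Rpph1 and Vaultrc5 were at means of 0.994 to 4.50 FPKM with values of 0 in single libraries, and none of them was called in any scaling (at an unadjusted p under 0.05 none as deposited). Bc1 was listed at 0 throughout, and 6 other listed products had no row and were not analysed here. RNAs without poly(A) tails are captured unevenly by oligo-dT, so these levels are no measure of transcription by either enzyme.

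Across the 37 tested members, the log2 fold change as deposited fell with the mean WT level (Spearman's rho −0.40, Pearson's r −0.41). All tested genes gave −0.30 and −0.30. These are descriptions across genes of the same 6 libraries, and the WT values enter both axes. With the length of the longest coding transcript of GENCODE vM21, rho was −0.13 for members and −0.15 for all tested genes with a length, and with its GC content 0.11 and −0.013. The 8 higher members had transcripts of 1314 to 9921 nt (median 3715), and the 8 lower ones of 2209 to 9216 nt (median 4460.0). Bdp1, higher in KO, and Polr1a, lower, had the longest transcripts of these 16.

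**Figure D4:**
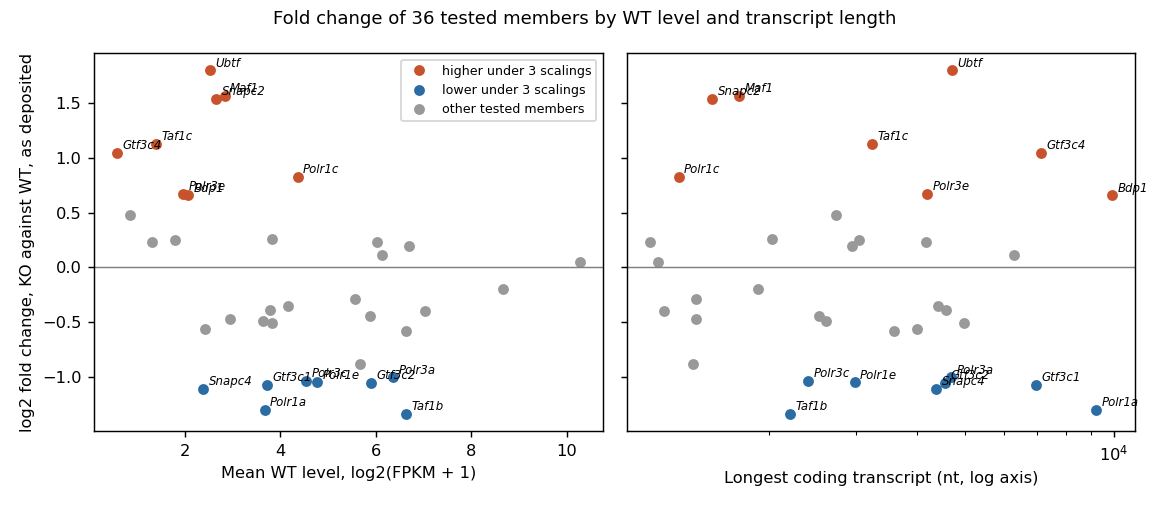
Log2 fold change as deposited (vertical axis) of 36 of the 37 tested members against the mean WT level, log2(FPKM + 1) (left), and against the length of the longest coding transcript in nt (right, log axis), coloured by call under the 3 scalings. The 8 higher members are all at or below 19.5 FPKM in WT, while both directions cover a wide range of transcript lengths.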

How the data were processed

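Polyadenylated RNA of 3 WT and 3 KO libraries was grouped by the genotype in the titles. The submitters' processing notes name build mm9, Cufflinks 2.2.1 and TopHat2 2.1.1; no source used here gives annotation, filters or spike-in factors. The authors deposited FPKM per gene symbol, normalized to ERCC spike-ins per the labels. Division of WT values by 2 and of KO values by 4/3 returned numbers of 6 digits for 100% of values of at least 1 FPKM (tolerance 0.01 of the last digit), which gives the genotype factors.

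From these, log2(FPKM + 1) was fitted with limma 3.58.1 in R 4.3.3 (intensity trend, two-sided) on the 12029 genes averaging 1 FPKM or more, and p-values were Benjamini-Hochberg adjusted over all of them; the step was tested on simulated data. Ratios of paired genes were compared by exact permutation. Results on 1 member are not reported here beyond the counts, medians and sums that include it; every other member was named, and those called alike under 3 scalings, and the genes of the ratios, are given by library. From lists outside the members, up to 4 genes of smallest p and those in a direction with 5 or fewer calls were eligible. Members, lists and tests were chosen with earlier results of these data known. Alternatives were pseudocounts, filters, scalings, trend, replicate block and left-out libraries; changed subunit sums and libraries left out with the factors removed were added after seeing the data. Exons of 12 of 38 members overlap another gene in GENCODE vM21 (build mm10), including Polr1a, Gtf3c2, Snapc4 and Taf1c of the 16; the cDNA method does not mark strand. Read depth is unknown. Python 3.11.15 with pandas 2.3.3, numpy 2.4.6, scipy 1.17.1 and matplotlib 3.10.9 was used.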

Additional observations from a re-analysis of the deposited data

How the results depend on the processing

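Scaling set most of the counts. With equal totals, median-ratio rescaling and the factors removed, 15, 16 and 17 members were higher and 9, 9 and 8 lower, among all tested genes 2283, 2746 and 3097 higher and 3107, 2606 and 2161 lower. On the Pol III side 8, 8 and 9 were higher and 4, 4 and 4 lower; on the Pol I side 4 were higher by median ratios and 4 with the factors removed. In the same order the median log2 fold changes were 0.05, 0.13 and 0.19 for all members, −0.16, −0.074 and −0.005 for Pol I, and 0.05, 0.13 and 0.19 for Pol III. The log2 change of the Pol I sum was −0.73 with equal totals and −0.58 with the factors removed, that of the Pol III sum 0.15 and 0.31. Single members changed sign with equal totals (Brf2 0.23, Gtf3a 0.14, Gtf3c3 0.006, Polr3f 0.05, Snapc5 0.03), by median ratios (Brf2 0.31, Gtf3a 0.21, Gtf3c3 0.081, Gtf3c6 0.06, Polr3f 0.13, Snapc5 0.11) and with the factors removed (Brf1 0.039, Brf2 0.38, Gtf3a 0.28, Gtf3c3 0.14, Gtf3c6 0.13, Polr3b 0.024, Polr3f 0.19, Polr3gl 0.016, Snapc5 0.18).

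Above a mean of 10 FPKM, fewer members could be tested. Of 24 members 4 were higher (16.7%), 1 of 5 on the Pol I side and 1 of 13 on the Pol III side. Of all genes 490 of 7267 were (6.74%). With no filter, the medians relative to all genes were −0.16 (members), −0.37 (Pol I) and −0.16 (Pol III), since genes near 0 FPKM join the comparison. Then 7 members were called higher (18.9%, beside 7.69% of the 12029 genes), Polr3e losing its call (limma adjusted p = 0.0588). Without the intensity trend 16 members were lower (43.2%, beside 53.7% of all tested genes), Polr1b being added (limma adjusted p = 0.0467). A pseudocount of 5 gave a Pol I median of −0.30, or 0.031 relative to all genes. The log2 Pol III sum and Pol III to Pol I ratio were −0.61 and 0.55 without Polr3k; with the other subunits added, Pol I, Pol III and their ratio changed by 0.05, −0.18 and −0.24. With single libraries left out, 6 to 10 members were higher and 11 to 16 lower, on the Pol I side 1 to 3 and 3 to 5, on the Pol III side 3 to 5 and 5 to 8. Shares of all tested genes in these fits are not given, so the counts show only how far the members' calls varied. The Pol I median then ran from −0.72 to −0.39 (−0.25 to 0.093 relative to all genes) and the Pol III median from −0.38 to −0.29. The log2 Polr3g to Polr3gl ratio ran from 0.77 to 1.08. For each change in this part beyond the numbers of genes or libraries tested, the cause was not tested.

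Deviations of same-numbered WT and KO libraries from their group means had correlations of 0.141, −0.099 and 0.038. Those of differently numbered libraries ran from −0.243 to 0.172. With 3 libraries a group these values cannot decide whether the numbers mark pairs, and no label says so. With the replicate block, 8 members were higher (21.6%) and 14 lower (37.8%), against 8 and 15 without it. Of all tested genes 9.21% and 53.5% were called with the block. Polr3f lost its call (limma adjusted p = 0.0503).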
